A study of Mus musculus with 28 samples.

Results

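The genes described here are those of the cytosolic ribosome in mouse liver. They were taken by name: every gene whose symbol is Rpl or Rps followed by a number, with at most 1 letter and further digits after it, plus Rplp0, Rplp1, Rplp2 and Rpsa. This rule found 88 of the 35275 genes in each of the 2 deposited tables. By role they were 43 genes of the large subunit core, 3 of the P stalk and 31 of the small subunit core. A further 7 were paralogs, Rpl3l, Rpl10l, Rpl39l and Rps27l among them. The 4 other matches of the name were Rps3a2, Rps3a3, Rps12l1 and Rps12l2, which GENCODE lists as processed pseudogenes. Rps4l, counted here with the paralogs, is listed there as a transcribed processed pseudogene. No measured value entered the choice.

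All mice were FVB and carried FAKfl/fl, the floxed gene of focal adhesion kinase (Ptk2). At baseline, whole liver (called tissue here) and isolated hepatocytes of mice 6 to 8 weeks old came either from FAKfl/fl;Alb-Cre- littermates, the WT groups, or from FAKfl/fl;Alb-Cre+ mice, the KO groups, with 4 libraries in each of 4 groups. Alb-Cre is driven by the albumin promoter and deletes in the fetal liver, in hepatocytes and cholangiocytes alike. In the second experiment, whole liver was taken after a diet with 0.1% w/w DDC, a porphyrinogenic compound that causes cholestatic injury, given for 4 to 8 weeks, with 3 libraries in each of 4 groups. Bred WT and Bred KO were the same 2 Alb-Cre genotypes. Virus mice were FAKfl/fl;Alb-Cre- and received a vector before the diet, AAV8-TBG-Cre in the KO group and, for WT, AAV8-TBG-Null. The TBG promoter limits Cre to hepatocytes. Ages in the DDC experiment are not given in the sources used here, and the diet was fed to all 4 groups of that experiment, so no diet control enters these comparisons.

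The ribosome reads messenger RNA and joins amino acids into protein. Its small subunit holds the decoding site and its large subunit the peptidyl transferase centre, while the acidic P proteins Rplp0, Rplp1 and Rplp2 form the flexible stalk that recruits elongation factors. Most ribosomal protein mRNAs are short, abundant and stable, and in mammals they begin with a C followed by a run of pyrimidines, the 5′ terminal oligopyrimidine (TOP) tract, through which mTORC1 and Larp1 set their translation together. Translation control of this kind need not change the amount of mRNA, which is what RNA-seq reads. In liver, hepatocytes make most plasma proteins and carry a large protein-synthetic apparatus.

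The start of each gene was read from RefSeq promoter windows (GRCm38.p6) to show this shared element. Of the 88 genes, 63 had a window. A C at the annotated start followed without a break by C or T, to at least 5 bases, was found in 13 of these genes (20.6%), against 813 of 27025 genes with a window (3.01%), 4 of 19 translation factors known for a TOP tract (21.1%) and 0 of 69 mitochondrial ribosomal proteins. A run of at least 8 C or T within 20 bases of the start, on the coding strand, was present in 33 of the 63 (52.4%) and in 23.7% of all genes. The 30-base windows of 8 genes are shown as examples of a start with the tract, of a tract at another base and of a start without one. Each window holds 15 bases before the annotated start and 15 from it, 5′ to 3′ on the coding strand, and capitals mark the unbroken run of C and T through the start. The first 5 have a TOP-like start by this rule. A gene with several annotated starts was counted if any of them matched. Rpl35a has further annotated starts that do not match, and only its matching start is shown.
Rps6, chr4:86857353-86857382, minus strand: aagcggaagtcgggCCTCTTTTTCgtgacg
Rplp2, chr7:141447636-141447665, plus strand: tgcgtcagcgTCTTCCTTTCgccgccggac
Rps27, chr3:90213634-90213663, minus strand: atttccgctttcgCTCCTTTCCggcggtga
Rpl35, chr2:39005117-39005146, minus strand: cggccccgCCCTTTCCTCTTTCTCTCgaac
Rpl35a, chr16:33056467-33056496, plus strand: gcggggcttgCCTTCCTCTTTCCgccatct
Rpl27a, chr7:109519180-109519209, plus strand: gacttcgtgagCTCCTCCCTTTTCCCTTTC
Rplp0, chr5:115559452-115559481, plus strand: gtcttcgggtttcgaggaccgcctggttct
Rpl10, chrX:74270801-74270830, plus strand: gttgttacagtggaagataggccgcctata
Rpl27a has the longest tract of the 8 but its annotated start falls on a T. Rplp0 and Rpl10 have no C or T at the annotated start. A missing match says only that these letters are not at that annotated base.

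Levels are given as FPKM, counts scaled to gene length and to the library total, so that genes of different length can be compared. In WT tissue 65 of the 88 had a mean above 100 FPKM and 8 had a mean under 1 FPKM. By mean FPKM, 21 were among the 200 most abundant genes of WT tissue and 25 of KO tissue, 4 in each hepatocyte group, and 25 to 35 in the DDC groups. The median of the 82 genes that passed the filter on low counts was 221 FPKM in WT tissue, 284 in KO tissue, 125 in WT hepatocytes and 141 in KO hepatocytes. Under DDC the Bred medians were 233 (WT) and 256 (KO) and the Virus medians 305 (WT) and 327 (KO). Rplp1 and Rplp0 of the stalk and Rps14, a small subunit protein at the platform, were the 3 highest in tissue and in all 4 DDC groups. In hepatocytes Rplp1 was followed by Rpl10, the last large subunit protein to join the maturing particle, and Rpl6. The proteins are mostly present once per ribosome, but mRNA levels per length were spread widely, and in WT tissue the middle 50% of the filtered genes ran from 117 to 366 FPKM.

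Counts were summed per gene, so that a value covers all annotated exons, UTRs included. In mm10 Rplp0 lies at chr5:115559467-115563727 (plus strand), Rplp1 at chr9:61913284-61914538 (minus), Rpl10 at chrX:74270812-74273135 (plus), Rpl23a at chr11:78180932-78183584 (minus) and Rps29 at chr12:69157722-69159186 (minus).

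The lowest genes were paralogs and gene models that share sequence with others. Rpl10l, a testis paralog of Rpl10, had no count in any of the 28 libraries, and Rpl39l had none in the 16 baseline libraries. Rpl3l, the striated muscle paralog of Rpl3, reached at most 0.365 FPKM at baseline. Rpl24, a core gene of the large subunit (mm10 chr16:55966275-55971435, plus strand), received 4 counts over all baseline libraries and 3 over all DDC libraries. The gene overlaps Gm28037 on the same strand, which received 0 counts, and 80.1% of the 100-base stretches of its transcript occur in other genes. These shared stretches were also frequent for Rpl10 (84.4%), Rps6 (83.6%), Rpl23a (80.0%), Rpl3 (79.4%), Rpl11 (59.7%) and Rps27 (57.9%), among others. They were low for Rps15a (3.03%), Rps14 (15.0%) and Rplp0 (18.3%). Counts of genes with frequent shared stretches can be split or discarded among near-identical copies, so their levels are uncertain. This holds for such genes wherever they are named below. The 6 genes that did not pass the filter in either experiment were Rpl10l, Rps12l1, Rps12l2, Rpl3l, Rpl39l and Rpl24.

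Total counts per library ran from 11162678 to 20428773. The labels do not state that each library is a separate mouse, so p-values measure only the spread between these libraries, which may be technical. Ptk2 itself fell in each KO group without overlap, from 3.65 to 6.67 FPKM in WT tissue to 1.17 to 1.45 in KO tissue, from 5.68 to 6.46 to 0.907 to 1.29 in hepatocytes, from 5.16 to 8.35 to 2.03 to 2.35 in Bred mice and from 5.52 to 6.59 to 2.43 to 3.06 in Virus mice. Albumin (Alb) averaged 20692 FPKM in WT tissue and 24681 FPKM in WT hepatocytes, with overlapping ranges. The hepatocyte gene Apoa1 went the other way, at 9302 and 7707 FPKM. The cholangiocyte marker Krt19 averaged 0.611 and 0.0246 FPKM in the same 2 groups.

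Tissue WT 2 and tissue WT 4 stood apart from the other WT tissue libraries. Ribosomal protein genes took 2.57% of counts in tissue WT 1 and 2.48% in tissue WT 3, but 1.45% in tissue WT 2 and 1.39% in tissue WT 4. The KO tissue libraries held 2.78%, 2.86%, 2.37% and 2.29%. Tissue WT 1 and 3 therefore lay inside or beside the KO range and tissue WT 2 and 4 well under it. WT hepatocytes held 1.08%, 1.02%, 1.09% and 1.04% and KO hepatocytes 1.32%, 1.16%, 1.09% and 1.23%, so that every hepatocyte library was below every tissue library. In the DDC experiment Bred libraries held 1.72%, 2.14% and 1.81% (WT) or 2.36%, 2.14% and 2.06% (KO). Virus libraries held 2.67%, 2.37% and 2.42% (WT) or 2.44%, 2.86% and 2.56% (KO). All Virus libraries exceeded all Bred libraries, the closest pair being Bred KO 1 and Virus WT 2.

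**Figure D1:**
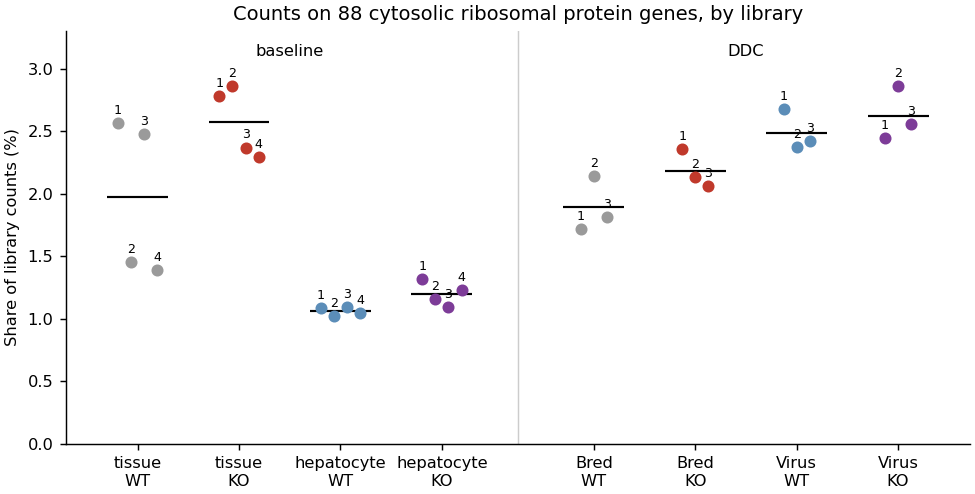
Share of library counts on the 88 ribosomal protein genes (percent, vertical axis) for each of the 8 groups. Points are libraries with their replicate number and bars are group means; hepatocyte libraries sit between 1.02% and 1.32%, under every tissue library, and tissue WT 2 and 4 sit at 1.45% and 1.39%.

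The same libraries differed in how counts depended on gene length. Ribosomal protein genes are short: their median length in the tables was 929 bases, from 255 bases for Rps27 to 5130 for Rps15a, against 3090 bases for all tested baseline genes. Over the 12425 tested genes that are not ribosomal protein genes, the rank correlation between length and a library's log2 deviation from the mean of all baseline libraries was -0.48 in tissue WT 1 and -0.34 in tissue WT 3, but 0.29 in tissue WT 2 and 0.26 in tissue WT 4. It ran from -0.50 to -0.32 in KO tissue, from 0.34 to 0.43 in WT hepatocytes and from 0.11 to 0.33 in KO hepatocytes. For each library a smooth trend of deviation on length was fitted to the other genes and read at the lengths of the ribosomal protein genes. Tissue WT 1 had an observed median of 0.76 on the log2 scale where the trend gave 0.54, and tissue WT 2 had -0.11 where the trend gave -0.12. Hepatocyte WT 2 had the lowest median, -0.64, where the trend gave -0.34. In the 6 other tissue libraries than WT 2 and 4, the median residual over the trend was 0.13 to 0.30, and in all 8 hepatocyte libraries it was -0.35 to -0.08. It was -0.04 in tissue WT 2 and -0.20 in tissue WT 4, the latter inside the hepatocyte range. The genes thus lay above their length trend in those 6 tissue libraries. In hepatocytes and in tissue WT 2 and 4 they lay below it.

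**Figure D2:**
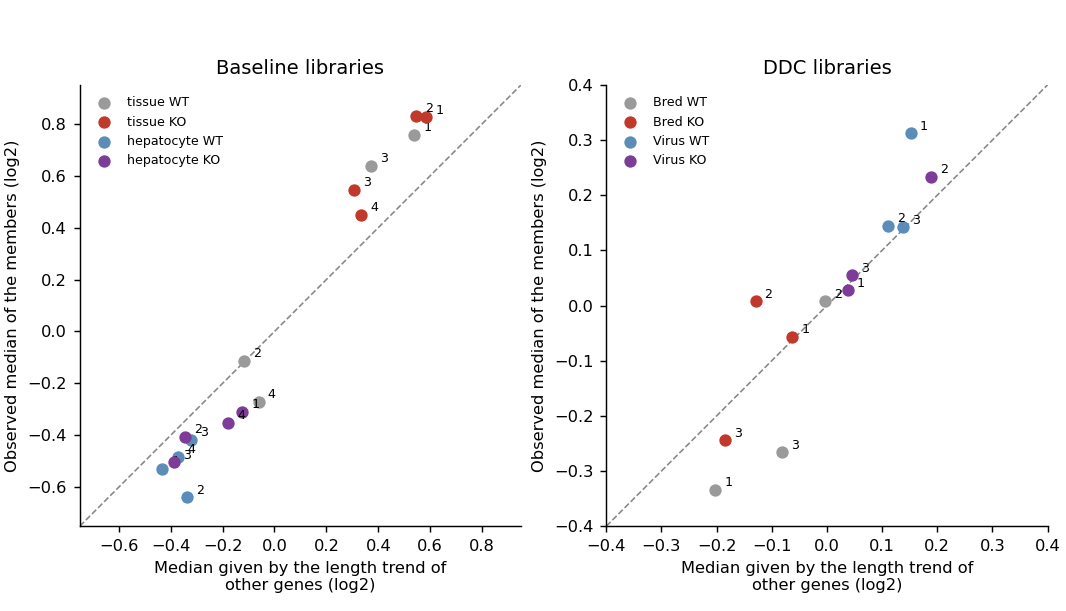
Median log2 deviation of the ribosomal protein genes in each library (vertical axis) against the median that the length trend of all other genes gives for the same lengths (horizontal axis), with replicate numbers and the line of equality. Baseline libraries run from -0.64 to 0.83 on the vertical axis and DDC libraries from -0.33 to 0.31; tissue WT 2 and 4 (-0.11 and -0.27) lie between the hepatocyte libraries and the other tissue libraries.

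Isolated hepatocytes were compared with whole liver in each genotype. Nearly the whole set was lower in hepatocytes. In WT mice 74 of the 82 filtered genes fell and 0 rose, with a median log2 change of -0.83, while 15.6% of all 12507 tested genes were called lower and 9.81% higher at an adjusted p under 0.05 (edgeR quasi-likelihood test). In KO mice 74 fell and 0 rose, with a median of -1.04, against 23.9% and 20.2% of all genes. The groups did not overlap for 62 genes in WT mice (13.1% of all genes were lower without overlap) and for 74 in KO mice (23.4%). The 2 contrasts shared 69 called genes, and Rps3a2, Rps3a3 and Rps4l, which carry the pseudogene annotations given above, were called in neither. Without tissue WT 2 and 4 the WT count was 76 and the median -1.16, with 19.9% of all genes called lower. Since these 2 had the lowest ribosomal protein shares in tissue, leaving them out had to deepen the median.

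Of the stalk, Rplp0 stood at 984, 394, 1014 and 399 FPKM in WT tissue and at 358, 305, 312 and 270 in WT hepatocytes. All hepatocyte values lay under the lowest tissue value, although 2 tissue libraries came close to them. The log2 change was -1.15 (SE 0.27, adjusted p = 0.00869, edgeR) in WT and -1.74 (SE 0.27, adjusted p = 0.000328, edgeR) in KO mice, where tissue held 1002, 1074, 919 and 859 FPKM and hepatocytes 326, 303, 285 and 266. Rplp1 changed by -0.87 (SE 0.20) and -1.06 (SE 0.20), called in both.

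Rps14 of the small subunit stood at 1433, 456, 1258 and 423 FPKM in WT tissue, at 1549, 1534, 1146 and 1222 in KO tissue, at 290, 277, 272 and 258 in WT hepatocytes and at 339, 299, 276 and 293 in KO hepatocytes. Hepatocyte values were tight, and tissue WT 2 and 4 lay between them and the other tissue libraries. Rps14 changed by -1.69 (SE 0.32, adjusted p = 0.00354, edgeR) in WT and by -2.21 (SE 0.32, adjusted p = 0.000211, edgeR) in KO mice. Rps23, a protein of the decoding centre, changed by -1.29 in WT mice, and Rps7 by -1.79 in KO mice. Rps3, at the entry of the mRNA channel, changed by -1.27 and -1.64. The change was smaller for Rps6, the classical substrate of S6 kinase (-0.64, SE 0.15, and -0.91, SE 0.15), and for Rpsa, the laminin receptor precursor (-0.82, SE 0.21, and -1.22, SE 0.21). All of these were called in their contrasts.

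In the large subunit Rpl35a changed by -1.54 (SE 0.27, adjusted p = 0.00285, edgeR) in WT and -1.70 (SE 0.28) in KO mice, and Rpl13a by -1.36 and -1.81. Rpl5 and Rpl11, which with 5S RNA can bind Mdm2 and stabilise p53, changed by -0.97 and -1.36 in WT and by -1.22 and -1.25 in KO mice. Rpl3, which lies at the peptidyl transferase centre, held 119, 109, 148 and 92.3 FPKM in WT tissue and 69.6, 69.3, 72.5 and 73.2 in WT hepatocytes, with a change of -0.68 (SE 0.14, adjusted p = 0.00467, edgeR). Its groups did not overlap and tissue WT 2 and 4 were not far from tissue WT 1. Rpl10 had one of the smallest called changes in WT mice, -0.41 (SE 0.14), and changed by -0.76 (SE 0.14) in KO mice. Rpl22, whose protein is dispensable for translation in the mouse, changed by -0.91 and -1.09.

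**Figure D3:**
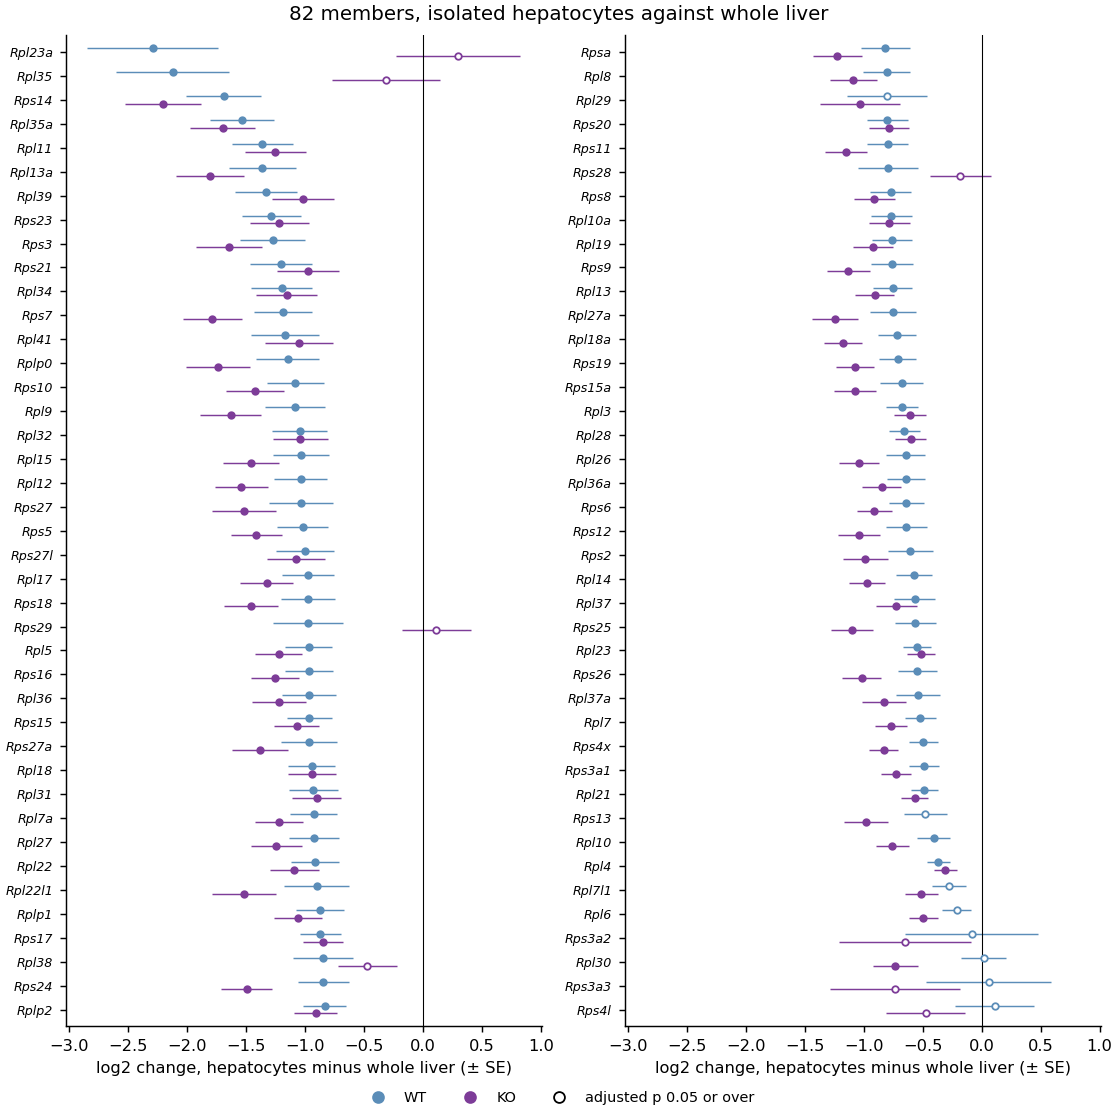
Log2 change of each of the 82 filtered ribosomal protein genes, hepatocytes minus whole liver, with its SE, in WT mice (blue) and KO mice (purple), ordered by the WT value; filled points have an adjusted p under 0.05. In each genotype 74 genes are filled and lie to the left of 0.

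Gene length moved with this difference. Across other genes the hepatocyte minus tissue change rose with length, with a rank correlation of 0.42 in each genotype over 12425 genes, a description since genes share libraries. Within the 82 ribosomal protein genes it was 0.14 and -0.03. After the length trend of each library was removed, 26 genes were called lower and 0 higher in WT mice (8.25% of all genes lower and 12.4% higher), with a median of -0.27 where all genes had 0.10. In KO mice 45 were called lower and 2 higher (15.3% and 22.8% of all genes), with a median of -0.32 where all genes had 0.11. The 2 contrasts shared 19 calls, 73.1% of the WT list and 40.4% of the KO list. Rps14 kept a change of -0.93 (adjusted p = 0.00578, edgeR) and -1.42 (adjusted p = 0.000147, edgeR), and Rplp0 -0.63 and -1.18, both called. Rpl10 turned to 0.15 in WT mice, which was not called, and in the same mice Rplp1 (-0.15) and Rps6 (-0.12) were not called either. The 2 genes called higher in KO hepatocytes were Rps29 (0.93, adjusted p = 0.00634, edgeR) and Rps28 (0.57, adjusted p = 0.0410, edgeR); before the trend was removed neither was called, at 0.11 and -0.18. Genes with a TOP-like start had a median of -0.97 in WT and -0.98 in KO mice (13 genes), and the other genes with a window -0.81 and -1.06 (46 genes).

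**Figure D4:**
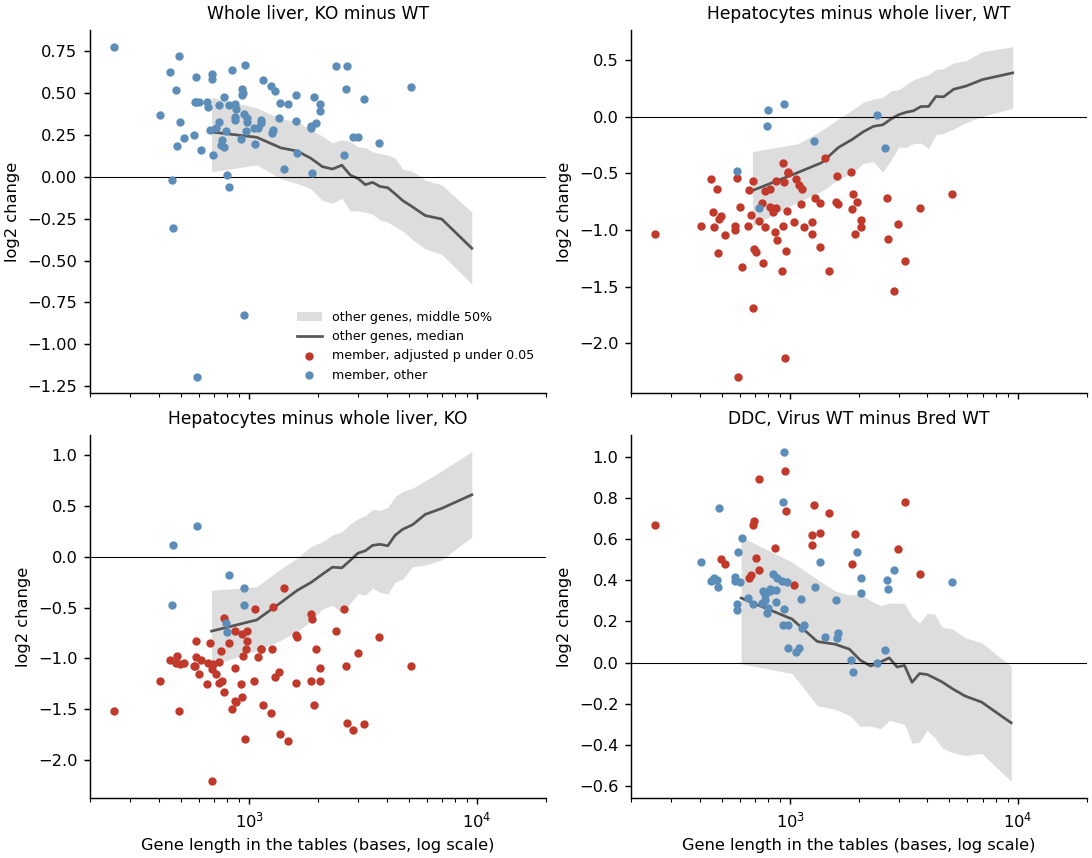
Log2 change of each ribosomal protein gene (points, red where the adjusted p is under 0.05) against its length in bases on a log axis, with the median and middle 50% of all other genes at each length, for 4 comparisons. In hepatocytes minus tissue most points lie under the median of other genes of like length, and in whole liver KO minus WT they lie near or above it.

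Other genes of protein synthesis were read against the same shares of all genes, 15.6% lower and 9.81% higher in WT mice and 23.9% and 20.2% in KO mice. Of 76 tested mitochondrial ribosomal protein genes, which are encoded in the nucleus but serve mitochondrial translation, 47 were lower in WT and 58 in KO hepatocytes and 0 higher in either, with medians of -0.53 and -0.66. With the length trend removed, 9 were lower and 2 higher in WT mice (8.25% and 12.4% of all genes), and 22 and 5 in KO mice (15.3% and 22.8%), with medians of -0.16 and -0.14. Of 25 translation factors known for a TOP tract, 11 were lower and 1 higher in WT mice, and 16 and 1 in KO mice. Of 52 ribosome biogenesis genes 7 were lower and 5 higher in WT mice, and 8 and 13 in KO mice, numbers near the shares of all genes. Gnb2l1, the small subunit protein Rack1, fell by 1.26 and by 1.75 on the log2 scale and Fau, the precursor of Rps30, by 0.99 and 1.05. These lists were chosen with earlier results of these data known.

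Cell mixture differed with the same contrast. Summed FPKM of 9 measured macrophage markers averaged 165 in WT tissue and 30.0 in WT hepatocytes, and 194 and 22.6 in KO mice. For cholangiocytes the sums of 8 markers were 13.2 and 2.70, and 23.7 and 3.43, and for red blood cells 463 and 117, and 652 and 102. Their part in the lower ribosomal protein values was not tested. In bulk samples fewer cells of a type and less RNA per cell cannot be told apart, and the cell source cannot be told apart from perfusion and density separation, which only the hepatocytes passed through.

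Loss of FAK was then compared within each material. In tissue, 0 of 82 ribosomal protein genes passed an adjusted p under 0.05 in either direction, with 0.008% of all 12507 genes called (edgeR). The median log2 change was 0.34, and 77 genes had a positive value. In 3 genes (3.66%) all KO values exceeded all WT values, a share near the 2.65% of all genes. An unadjusted p under 0.05 was reached by 33 genes (40.2%) against 16.1% of all genes, and DESeq2 called 3 higher, Rps26, Rps25 and Rpl10, against 0.428% of all genes. Rps26, at the mRNA exit channel, held 325, 223, 291 and 269 FPKM in WT tissue and 481, 492, 349 and 394 in KO tissue. Its groups did not overlap, the change was 0.62 (SE 0.17), and the adjusted p was 0.179 (edgeR). Rpl10 held 493, 394, 484 and 436 FPKM in WT and 710, 666, 552 and 618 in KO tissue, also without overlap (0.49, SE 0.14, adjusted p = 0.185, edgeR). Rpl30, at 13.1, 9.84, 9.35 and 14.04 FPKM in WT and 20.6, 16.8, 17.4 and 18.4 in KO tissue, had a change of 0.66 (SE 0.19) and an adjusted p of 0.185 (edgeR). With the length trend removed, Rps26 had 0.30 (adjusted p = 0.287, edgeR), Rpl10 0.23 (adjusted p = 0.350, edgeR) and Rpl30 0.62 (adjusted p = 0.234, edgeR).

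This median rested on which WT libraries were used. Without tissue WT 2 and 4 it was -0.01, with 0 genes called, while Rps14 went from 0.58 to -0.045 and Rplp0 from 0.44 to -0.11. These 2 libraries had the lowest shares of ribosomal protein counts in tissue. Leaving them out therefore had to lower the median, and the result is a description, not a separate test. Without tissue WT 1, 25 ribosomal protein genes were called, all higher, against 3.15% of all genes called higher. With the length trend removed the median was 0.18 and 0 genes were called (0.016% of all genes, edgeR). Length had a rank correlation of -0.43 with the change over the other genes.

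In hepatocytes the KO minus WT median was 0.11, with 0 of 82 genes called against 0.32% of all genes, and 4 with an unadjusted p under 0.05 (8.95% of all genes). DESeq2 called 0. In 15 genes all KO values exceeded all WT values, against 2.92% of all genes, and in 0 genes they all lay lower (3.02% of all genes). Rps29, a zinc-binding protein of the small subunit head, held 112, 79.1, 128 and 182 FPKM in WT and 302, 213, 189 and 210 in KO hepatocytes. The 2 groups did not overlap (0.78, SE 0.30, adjusted p = 0.420, edgeR; two-sided exact permutation p = 0.0286, the smallest that 4 against 4 libraries can give). With the length trend removed the median over the genes was 0.00. Over both materials pooled, 0 of 81 genes were called (0.0253% of all genes), DESeq2 called 0, 0 reached an unadjusted p under 0.05 (5.94% of all genes), and the median was 0.27. Genotype was the only term of that fit. The difference between hepatocytes and tissue therefore entered the spread, so these 0 calls cannot show that FAK loss had no effect.

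Rpl23a and Rpl35 were chosen for description among the genes whose genotype values took opposite signs in tissue and hepatocytes. Rps29 was another of these, at -0.31 (SE 0.29) in tissue and 0.78 in hepatocytes. Rpl23a, near the peptide exit tunnel, held 21.8, 16.3, 34.4 and 4.46 FPKM in WT tissue, 9.38, 8.28, 7.05 and 9.20 in KO tissue, 3.23, 1.67, 2.83 and 7.63 in WT hepatocytes and 6.87, 12.8, 17.6 and 4.90 in KO hepatocytes. Its lowest tissue value was in tissue WT 4 and its highest WT hepatocyte value in hepatocyte WT 4, libraries that no label links. The KO groups overlapped. Rpl35, its neighbour at the exit tunnel, followed a like order, at 61.8, 31.7, 60.5 and 10.04 FPKM in WT tissue and 8.79, 5.71, 6.07 and 16.6 in WT hepatocytes. KO minus WT was -1.19 (SE 0.53) in tissue and 1.40 (SE 0.55) in hepatocytes for Rpl23a, and -0.82 (SE 0.46) and 0.99 (SE 0.47) for Rpl35. None of the 4 was called. The test of the difference between materials gave 2.59 (SE 0.76, adjusted p = 0.492, edgeR) for Rpl23a and 1.81 (SE 0.65, adjusted p = 0.570, edgeR) for Rpl35, and 0 of 82 genes were called in that test (0% of all genes, with 6 ribosomal protein genes and 8.01% of all genes at an unadjusted p under 0.05; DESeq2 called 0 ribosomal protein genes). In hepatocytes against tissue Rpl23a changed by -2.29 (SE 0.55, adjusted p = 0.00961, edgeR) in WT mice and by 0.30 (SE 0.52) in KO mice, the latter not called.

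**Figure D5:**
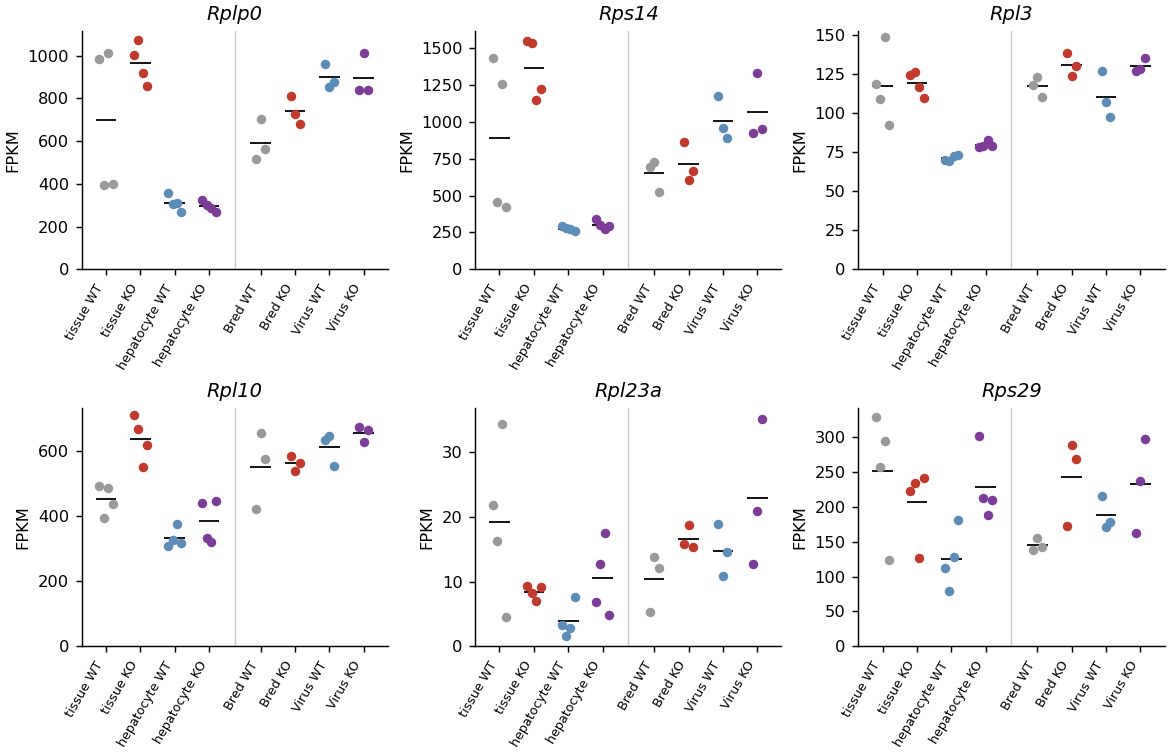
FPKM of 6 ribosomal protein genes in each library (points) with group means (bars), on linear axes from 0, with baseline groups left and DDC groups right of the grey line. Rplp0 and Rps14 have a WT tissue group split into high and low libraries, Rpl3 runs from 92.3 to 148 in that group, and Rpl23a from 4.46 to 34.4.

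Under DDC, the question was whether ribosomal protein mRNA differed with FAK loss by either method. In Bred mice 0 of 82 genes were called (6.25% of all 13955 genes, edgeR), with a median of 0.07 and 4 genes at an unadjusted p under 0.05 (24.6% of all genes). DESeq2 called 0. Rpl41, which encodes a very small peptide of the large subunit, held 309, 448 and 409 FPKM in Bred WT and 597, 615 and 554 in Bred KO. Its groups did not overlap, with a change of 0.48 (SE 0.17, adjusted p = 0.109, edgeR). With the length trend removed it was the 1 gene called higher (2.99% of all genes; 0.52, adjusted p = 0.0478, edgeR). Rps29 held 138, 156 and 142 FPKM in Bred WT and 173, 289 and 269 in Bred KO, and its change of 0.64 (SE 0.23, adjusted p = 0.110, edgeR) was called only without Bred KO 1.

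In Virus mice 0 of 82 genes were called (2.66% of all genes, edgeR), the median was -0.08 and 0 genes reached an unadjusted p under 0.05, against 18.7% of all genes. DESeq2 called 0. Rps7, whose protein can bind Mdm2, held 525, 436 and 498 FPKM in WT and 399, 516 and 369 in KO mice, with overlapping groups and a change of -0.35 (SE 0.19, adjusted p = 0.348, edgeR). Rps27l, a p53-induced paralog of Rps27, changed by -0.31 (SE 0.19, adjusted p = 0.420, edgeR), from 313, 307 and 294 FPKM to 231, 307 and 290. Over both methods 0 of 82 were called (6.41% of all genes, edgeR) at a median of -0.01, with 0 called by DESeq2 and 2 at an unadjusted p under 0.05 (25.4% of all genes), Rps27l (-0.33, SE 0.14, adjusted p = 0.154) and Rps29 (0.39, SE 0.16, adjusted p = 0.159). With the replicate number as a block Rps27l was called (-0.35, adjusted p = 0.0352, edgeR). That block also pairs same-numbered Virus libraries, which did not deviate together (correlations -0.056 to -0.031). No label gives a pairing in either method, so this call rests on an assumed one. In the test of genotype by method 0 of 82 were called (3.21% of all genes, edgeR), 1 reached an unadjusted p under 0.05 (17.6% of all genes), and DESeq2 called 0. That 1 gene was Rplp1, with 879, 866 and 834 FPKM in Bred WT against 1197, 1148 and 1026 in KO, and 1365, 1061 and 1148 in Virus WT against 1016, 1330 and 1109 in KO (difference of changes -0.48, SE 0.21, adjusted p = 0.240, edgeR).

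The 2 methods were also compared within each genotype. In Virus WT against Bred WT 24 of 82 genes rose and 0 fell (7.96% of all genes called higher and 8.45% lower, edgeR), with a median of 0.40, and in 55 genes all Virus values exceeded all Bred values (17.9% of all genes). Rps3 held 140, 149 and 135 FPKM in Bred WT and 272, 227 and 214 in Virus WT, so that the groups were well apart. The change was 0.78 (SE 0.17, adjusted p = 0.0105, edgeR). Rpl13a held 411, 464 and 358 FPKM in Bred WT and 739, 580 and 678 in Virus WT (0.73, adjusted p = 0.0128, edgeR), and Rplp0 516, 701 and 562 against 961, 855 and 878 (0.63, SE 0.15, adjusted p = 0.0143, edgeR). Rps14 (0.67), Rps7 (0.73), Rpl12 (0.57), Rps27 (0.67), Rpl41 (0.69), Rpl35 (0.93) and Rpsa (0.48) were also called. With 3 libraries against 3 an exact two-sided permutation test of 1 gene cannot go below 0.100.

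This count was unstable. Leaving out 1 library at a time gave 0 calls without Virus WT 1 (4.23% of all genes higher), 3 without Bred WT 3, 5 without Virus WT 3, 8 without Bred WT 1 or Virus WT 2, 14 without Virus KO 1 or Virus KO 3 and 38 without Bred WT 2 (6.71%). Shares of all genes are given only for the 0 and the 38. The counts between them cannot be read apart from calling over all genes. DESeq2 called 38 (10.7% of all genes higher) and limma on log2 FPKM 15 (6.71%). With the length trend removed 8 genes were called, Rps20, Rplp0, Rpl12, Rps3, Rpsa, Rpl13a, Rps15a and Rpl18, against 7.37% of all genes, with a median of 0.15. The length correlation over other genes was -0.24. Of ribosome biogenesis genes 17 of 52 rose and 1 fell in the same contrast (7.96% and 8.45% of all genes), among them the 60S and 40S assembly factors Nop2 (0.77) and Nob1 (0.91) and, as a U3 snoRNP protein, Rrp9 (1.01).

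In Virus KO against Bred KO 1 of 82 genes rose and 0 fell (1.76% of all genes called higher and 1.27% lower, edgeR), at a median of 0.21. In 26 genes all Virus values exceeded all Bred values (14.9% of all genes). The length correlation over other genes was -0.28. Across the length classes that held ribosomal protein genes, shortest first, other genes had medians of 0.25, 0.30, 0.21, 0.23, 0.12 and -0.02. Ribosomal protein genes had 0.20, 0.24, 0.16, 0.19, 0.17 and 0.32, lower than other genes in the shorter classes only. Medians after removal of the length trend were -0.01 (13 genes with a TOP-like start) and 0.01 (46 other genes with a window). The 1 gene called was Rpl29, which held 253, 77.8 and 240 FPKM in Bred KO and 412, 449 and 400 in Virus KO. Its change was 1.16 (SE 0.29, adjusted p = 0.0484, edgeR), with Bred KO 2 far under the rest. Without Bred KO 2, Rpl29 was still called (0.81, adjusted p = 0.0321, edgeR). It was not called with the length trend removed, which left 0 genes (1.14% of all genes higher), and the count was 8 without Bred KO 1 (4.09% of all genes higher) and 0 without any 1 of Bred WT 2, Bred WT 3, Bred KO 3 and the 6 Virus libraries. In WT mice macrophage marker sums averaged 1078 FPKM (Bred) and 1439 FPKM (Virus), cholangiocyte sums 104 and 144, and hepatocyte sums 36417 and 27970. KO mice had macrophage sums of 1353 and 1871, cholangiocyte sums of 105 and 162 and hepatocyte sums of 37561 and 29095. Single genes did not all follow the sums. From Bred to Virus, mean Apoa1 rose from 5053 to 6435 FPKM (WT) and from 5975 to 6995 FPKM (KO). Mean Alb fell from 20738 to 13363 FPKM (WT) and from 23185 to 14764 FPKM (KO). Mean Krt19 rose from 4.88 to 17.4 FPKM in WT and fell from 13.1 to 10.01 FPKM in KO mice, with overlapping KO ranges. Epcam, a further cholangiocyte marker, rose from 6.40 to 10.44 FPKM (WT) and from 5.47 to 8.85 FPKM (KO). The part of these cell types in the method difference was not tested. The injected vector and any other difference between Bred and Virus mice cannot be told apart. Between the KO groups the time and cell types of deletion differ as well.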

How the data were processed

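RNA of 28 liver or hepatocyte samples was sequenced with a directional kit. The authors mapped reads to mm10 with STAR and counted them per gene (HTSeq 0.6.1, per the submitters' notes; strand setting not given in the sources used here) and deposited, per library, raw counts and FPKM, the latter scaled to gene length and total counts; FPKM recomputed from the counts differed from the deposited values by at most 4.98e-10 percent. The 16 baseline and 12 DDC libraries lie in separate tables and were tested separately. The main test was edgeR 4.0.16 (R 4.3.3; TMM scaling, filterByExpr with a minimum count of 10, quasi-likelihood F test, Benjamini-Hochberg adjustment over all genes tested, calls under 0.05), fitted on all 4 groups of a table, or on 8 against 8 libraries for the pooled genotype contrast. SE is the log2 change divided by the square root of F. Deviations used a pseudocount of 1 CPM, and the length trend was a natural spline with 5 degrees of freedom fitted on other genes and entered as offsets. Alternatives used DESeq2 1.42.0, limma 3.58.1 on log2(FPKM + 1), other scaling, no filter, a replicate block, single libraries left out, tissue WT 2 and 4 left out and, chosen after seeing the data, length with GC or with the block and both libraries with length. No label sets tissue WT 2 and 4 apart, so their joint removal also rests on the values of these data. The code was tested on simulated data.

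Members and lists were chosen with earlier results of these data known. Named genes were up to 8 called genes a direction by p (otherwise the 4 smallest p), the 3 largest and 3 smallest changes, the 3 highest and lowest levels and a fixed list of stalk, assembly and paralog genes; a few others named in the text were chosen after their values were seen. Counts of libraries differed beyond sampling noise (chi-square per degree of freedom 14.9 or more), so none was a duplicate. Same-numbered Bred libraries deviated together (correlations 0.247 to 0.306), so their numbers were taken to pair them by the data, not the labels; with the replicate block Bred called 0 of 82 members and 1735 genes in all, against 872 without. Gene sequences come from RefSeq tables and gene spans from the count tables.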

Additional observations from a re-analysis of the deposited data

Results flagged for a closer look

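Values that stood apart from the other libraries of their group of 4 by Dixon's test were found in 8 of 136 checked groups (30 genes and library measures); chance gives about 1 in 20. Hepatocyte WT 2 had a median residual over the length trend of -0.35, where the other WT hepatocyte libraries had -0.14 to -0.11. In KO hepatocytes, Rpl3 stood at 82.8 FPKM in library 3 (others 78.4 to 78.6), and library 1 had Rpl41 at 333 (others 230 to 246) and Rplp1 at 655 (others 554 to 562). In KO tissue, library 3 was low for Rpl39 at 118 FPKM (others 166 to 174), Rps28 at 83.1 (others 125 to 128) and Rps29 at 126 (others 224 to 242). Rpsa was 262 FPKM in hepatocyte WT 1 (others 203 to 208).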

How the results depend on the processing

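Of 2221 values of 87 gene results under alternatives, 2053 kept direction and side of the threshold, 128 lost the call, 21 gained one and 19 changed sign; the cause was not tested. Members called moved as follows, mostly given without the share of all genes called in the same refit. A moved count can therefore follow a change in calling over all genes. DESeq2 called 3 in tissue KO against WT, 38 in Virus against Bred WT and 2 in Virus against Bred KO, and limma 15 and 0 in the last pair. With the replicate block, both DDC methods together gave 1 and Virus against Bred KO 0; the block changed no other member count by over 1.5 times. Outside the Bred mice same-numbered libraries did not deviate together (correlations -0.110 to 0.238 between WT and KO tissue). With the length trend removed, hepatocytes against tissue gave 26 (WT) and 47 (KO), Bred KO against WT 1, and Virus against Bred 8 (WT) and 0 (KO); adding GC gave 28, 48, 14 (Virus against Bred WT) and 0 (KO), and adding the block 22, 43, 2 (Bred), 1 (both methods), 10 and 0. Leaving out tissue WT 2 and 4 with the length trend removed gave 47 in hepatocytes against WT tissue. Leaving out 1 library gave 0 to 25 in tissue KO against WT (25 without tissue WT 1), 59 to 75 and 73 to 74 in hepatocytes against tissue (WT, KO), 0 to 1 in Bred, 0 to 2 over both methods, 0 to 38 in Virus against Bred WT and 0 to 8 for KO (0 in 9 of 12), and 0 in the other 5 comparisons. Sign changes: without tissue WT 2 and 4, Rps14 and Rplp0 in tissue KO against WT were -0.045 and -0.11, and -0.014 and -0.12 with length removed. In hepatocytes against WT tissue Rpl10 was 0.15 (length), 0.092 (length and GC), 0.15 (length and block) and 0.22 (without WT 2 and 4, with length). In KO, Rpl35 was 0.42, 0.41, 0.38 and 0.40 and Rps28 0.57, 0.51, 0.57 and 0.54 under the same 4. Leaving out 1 library, Rps29 ran from -0.057 to 0.18 and Rpl23a from -0.092 to 0.54. With the block all-gene calls went from 872 to 1735 (Bred), 371 to 677 (Virus) and 894 to 1751 (both).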
